A study of Homo sapiens with 8 samples.

Results

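The genes described here are 47 human genes of DNA replication, listed by name as known parts of the replication machinery. They were taken from 34290 genes with at least 1 count in the series, with earlier results of these data known. They comprise the origin recognition complex (ORC1 to ORC6), the licensing factors CDC6 and CDT1, the MCM2-7 helicase, the helicase partners CDC45 and GINS, the firing factors, the replicative polymerases and primase, the sliding clamp with its loader, RPA, the flap nuclease and ligase, ribonucleotide reductase and the chromatin assembly factors of the fork. The cells were HEK293T, a line derived from human embryonic kidney in which SV40 large T antigen is expressed. The 4 overexpression libraries came from cells transfected with a construct holding the tagged coding frame of KCNQ3, a subunit of the voltage-gated M-current potassium channel, and the 4 control libraries came from normal HEK293T cells. RNA was taken 48 hours after transfection. The labels give the same transfection text for every sample, so it is unknown here if the controls were treated with reagent or an empty vector. All 8 libraries come from 1 cell line, and nothing states that the replicates were cultures started separately. The p-values therefore reflect the spread among these 8 libraries alone, part or all of which may be technical.

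Replication is licensed once per cell cycle. In G1 the origin recognition complex and CDC6 bind origin DNA, and CDT1 brings the MCM2-7 rings that they load around it. Geminin (GMNN) and the CRL4 ubiquitin ligase with its receptor DTL later remove CDT1 activity. At the start of S phase the DBF4-dependent kinase CDC7, TOPBP1, CDC45, GINS and MCM10 turn the loaded rings into active helicases, and polymerases, clamp and loader follow. Many of these genes are targets of the E2F transcription factors. HEK293T cells divide quickly, and large T antigen binds the retinoblastoma proteins that restrain E2F.

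The libraries held 24020097 to 30734915 estimated counts. KCNQ3 itself had 15283, 15874, 19709 and 18603 counts in overexpression libraries 1 to 4, against 4, 5, 0 and 2 counts in control libraries 1 to 4, which fits the labels of all 8. All 6 HEK293T markers examined (PAX2, NEFL, NEFM, VIM, KRT8, KRT18) were at 1 TPM or more, TPM being transcripts per 1000000, a level scaled for transcript length. Their summed level ran from 677 to 787 TPM in overexpression libraries and from 708 to 911 TPM in controls. Of 6 fibroblast markers, COL1A1 alone reached 1 TPM and COL1A2 and DCN were at 0 in every library. The summed level was 3.99 to 6.15 TPM in overexpression libraries and 5.68 to 7.29 TPM in controls. Of 5 blood markers, PTPRC, CD3E and HBB were at 0 in every library. CD14 ran from 0.12 to 0.25 TPM in overexpression libraries and from 0.20 to 0.33 TPM in controls, and the other is not reported here. In such bulk samples, fewer cells in a phase of the cycle and less RNA per cell cannot be told apart.

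All 47 replication genes passed the filter on low counts, and their levels differed little between the groups. None of the 47 reached an adjusted p below 0.05 in edgeR's quasi-likelihood test over 19280 genes, where 58 genes or 0.301% did, while 14 members had an unadjusted p below 0.05 against 19.4% of all genes. Of those 14, 11 were lower with KCNQ3, which is 23.4% of members against 9.46% of all genes tested. The other 3, PRIM2, GINS4 and ORC2, were higher, 6.38% of members against 9.92% of all genes. The 4 overexpression libraries lay wholly below the 4 controls in CPM (counts per 1000000, with TMM scaling) for 9 members, 19.1% of members against 5.77% of all genes. They lay wholly above them for 1 member, ORC2, against 5.84% of all genes. In TPM the groups of DTL, CDT1, MCM5, RFC2, RFC1 and ORC2 overlapped, while those of CDC6, MCM10, ORC1 and MCM6 did not. The share of all genes without overlap in TPM is not given here. The members were chosen with earlier results of these data known, so the shares are descriptions. DESeq2, a second count test, gave an adjusted p below 0.05 for 10 members, 21.3% against 4.86% of the 14974 genes for which it gave a value, so whether any single member passes depends on the tool. On simulated data, 34 of the 165 calls of DESeq2 were false, against 15 of the 137 calls of edgeR. The count in edgeR also rested on single libraries. Without overexpression 1, DTL and CDC6 passed, against 1.94% of all genes, and without control 4, DTL, MCM10 and CDT1 passed, against 0.994% of all genes. It was 0 without any of the other 6 libraries.

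The median log2 fold change (overexpression over control) of the 47 members was -0.03, against 0.01 for all genes tested. Of the members, 28 had a lower fitted level with KCNQ3, 59.6% against 47.4% of all genes. The members are well expressed, and among the 6254 genes at or above 22.6 TPM, the mean level of the lowest member with stable estimates, 40.4% were lower, with a median of 0.03. For 40 members the 95% interval of the fold change lay within 1.25-fold of no change in either direction. The 7 with wider intervals were DTL, CDT1, RPA3, PRIM1, PRIM2, UHRF1 and POLA1. In PRIM1, PRIM2, UHRF1 and POLA1 the count estimates jumped between libraries of 1 group, as described further on. Among the other 43 the SD over 4 libraries was 1.36% to 12.8% of the mean CPM, with a median of 4.29% in overexpression libraries and 4.11% in controls. Averaged over those 43, the log2 level relative to the mean of all libraries was -0.02, -0.01, -0.03 and -0.03 in overexpression libraries 1 to 4, against 0.01, 0.03, 0.03 and 0.02 in control libraries 1 to 4. The groups did not overlap in this average, and the distance between them was a few hundredths of a log2 unit.

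**Figure D1:**
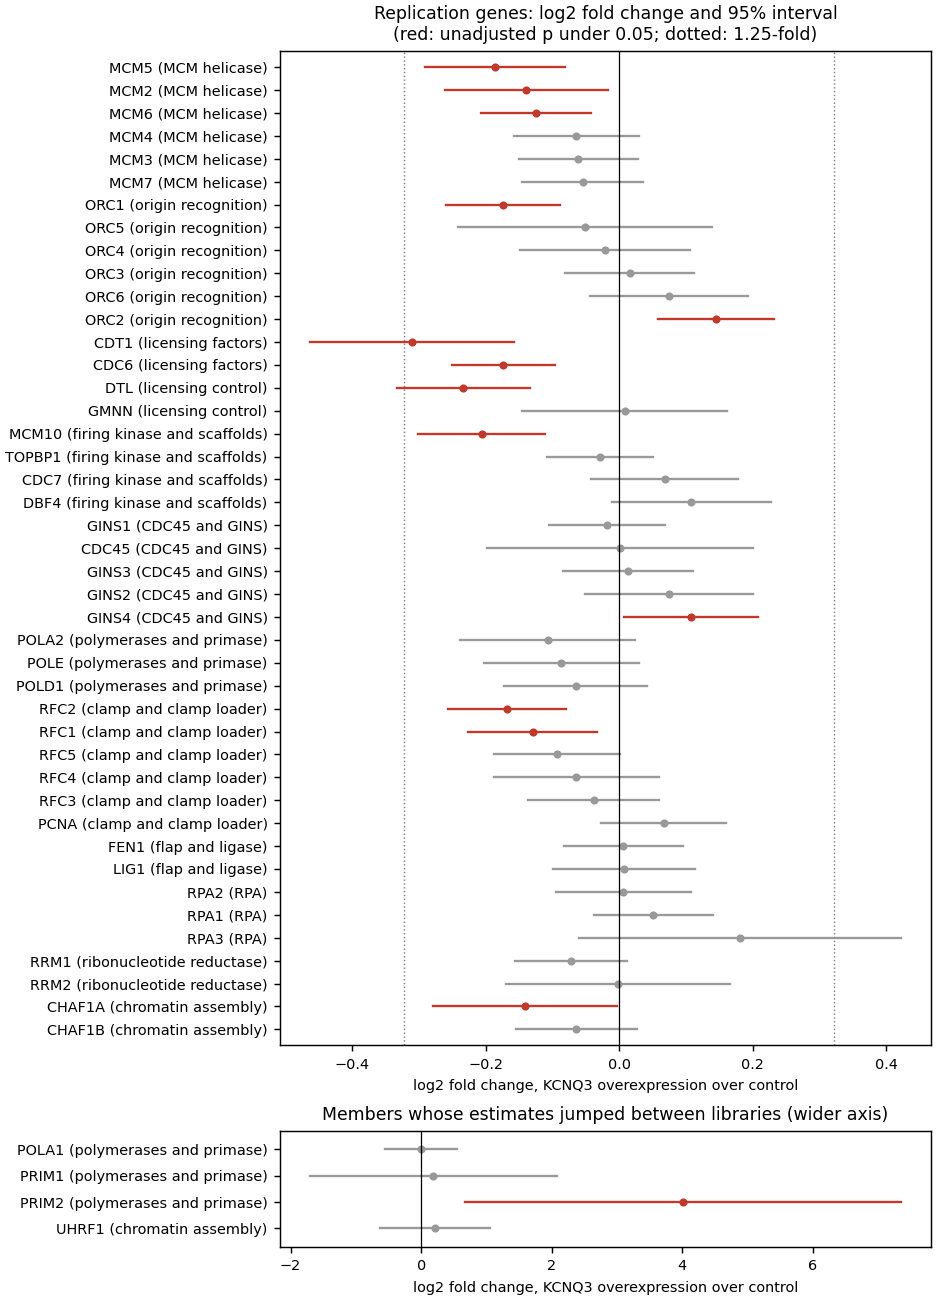
Log2 fold change (overexpression over control) and 95% interval of the 47 replication genes grouped by role, with members at an unadjusted p under 0.05 in red and 1.25-fold limits dotted. In the upper panel CDT1 is lowest at -0.31 and RPA3 highest at 0.18, while the lower panel holds the 4 members with unstable estimates on a wider axis.

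The licensing factor CDT1 and its destruction receptor DTL had the lowest fold changes of the set, and CDC6, the other licensing factor, was lower as well. CDT1 (ENSG00000167513, chr16:88803213-88809258, plus strand, GRCh38), which escorts the MCM ring to origins, had 219.7, 209.8, 226 and 195 CPM in overexpression libraries 1 to 4, against 292, 264, 264 and 233 CPM in control libraries 1 to 4. All 4 overexpression values were below the lowest control in CPM, and control 1 stood highest. In TPM, overexpression 1 of CDT1 (138.6) stood above control 4 (135.7). Its log2 fold change was -0.31 ± 0.07 (SE), and the adjusted p was 0.0699 in edgeR and 0.00379 in DESeq2. CDC6 (ENSG00000094804, chr17:40287633-40304657, plus strand), the ATPase that joins ORC in loading the MCM ring, had 115, 113, 113 and 111 CPM with KCNQ3, against 126, 126, 131 and 126 CPM in controls. The groups did not overlap, with a log2 fold change of -0.17 ± 0.04 (SE), and the adjusted p was 0.0628 in edgeR and 2.92e-05 in DESeq2.

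DTL (ENSG00000143476, chr1:212035553-212107400, plus strand), the receptor through which CRL4 marks CDT1 for destruction, had 156, 141, 148 and 144 CPM in overexpression libraries, against 180.2, 174, 174 and 165 CPM in controls. Again no overexpression value reached the lowest control in CPM, though in TPM overexpression 1 (59.8) stood above control 4 (57.8). The log2 fold change was -0.23 ± 0.05 (SE), and the adjusted p was 0.0597 in edgeR and 0.000303 in DESeq2. GMNN (ENSG00000112312, chr6:24774931-24786099, plus strand), the protein inhibitor of CDT1, differed from these genes in that its groups overlapped fully. It had 134, 154, 136 and 146 CPM with KCNQ3, against 125, 140.4, 144 and 156 CPM in controls, a log2 fold change of 0.01 ± 0.07 (SE). On the length-scaled level, the ratio of CDT1 to GMNN was 0.651 ± 0.082 with KCNQ3 and 0.812 ± 0.15 in controls (TPM over TPM, SD, n = 4 each), and the ranges overlapped because control 4 had 0.642. CDT1 had the lowest fold change of the set, so this ratio is given as a description.

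**Figure D2:**
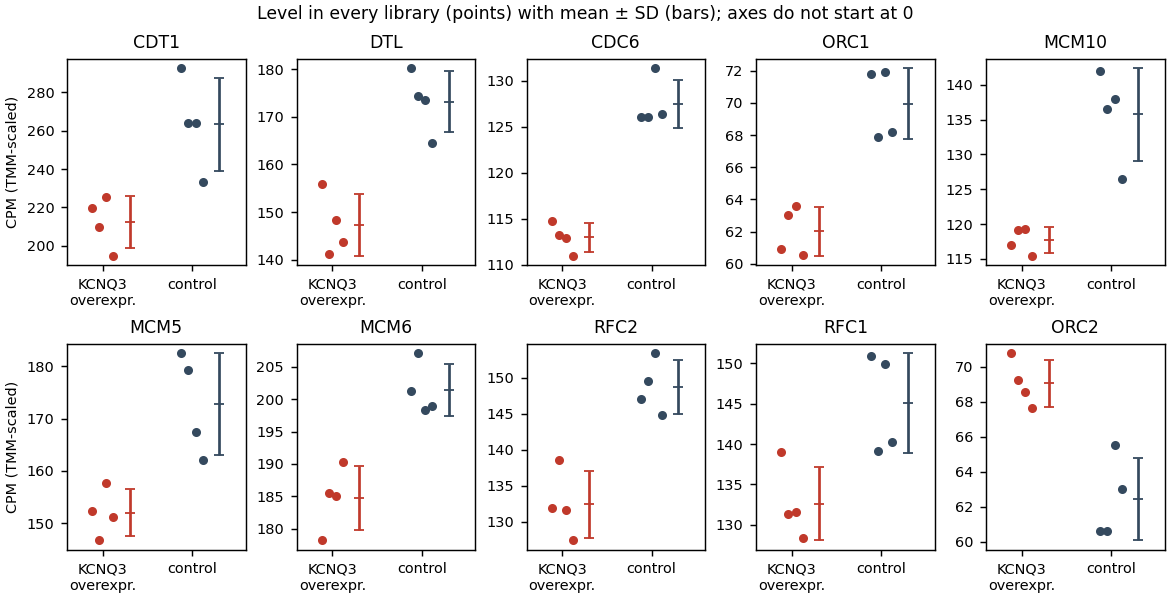
TMM-scaled CPM in every library (points, overexpression left in red, control right in dark blue) with mean and SD (bars) for the 10 members whose groups did not overlap. The 4 overexpression values are below all 4 controls for 9 genes and above them for ORC2, and the gap is narrowest for RFC1.

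Promoters are shown for CDT1, DTL, CDC6, ORC1 and MCM10, the members with the smallest p among those lower with KCNQ3, and for ORC2, which was higher, so that these 6 can be read against each other. The sequences are from RefSeq (GRCh38.p14), from 250 bases before the transcription start to 30 after it, written 5′ to 3′ on the strand of the gene. Capitals mark matches to any of 4 E2F-type words, TTCCCGC and its variants TTCGCGC, then TTGCCGC, then also TTGGCGC, searched on both strands.
CDT1, chr16:88803539-88803818, plus strand: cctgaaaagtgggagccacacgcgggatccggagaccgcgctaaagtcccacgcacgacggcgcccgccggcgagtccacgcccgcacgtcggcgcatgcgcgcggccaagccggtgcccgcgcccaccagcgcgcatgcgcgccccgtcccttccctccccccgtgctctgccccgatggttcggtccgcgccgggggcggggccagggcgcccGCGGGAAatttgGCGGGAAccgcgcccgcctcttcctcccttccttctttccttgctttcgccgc
DTL, chr1:212035498-212035777, plus strand: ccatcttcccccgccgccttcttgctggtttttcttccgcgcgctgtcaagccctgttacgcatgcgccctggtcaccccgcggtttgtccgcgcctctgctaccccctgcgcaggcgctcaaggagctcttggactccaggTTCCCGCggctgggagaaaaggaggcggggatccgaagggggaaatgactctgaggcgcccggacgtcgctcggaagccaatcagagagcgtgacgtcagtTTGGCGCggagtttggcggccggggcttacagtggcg
CDC6, chr17:40287629-40287908, plus strand: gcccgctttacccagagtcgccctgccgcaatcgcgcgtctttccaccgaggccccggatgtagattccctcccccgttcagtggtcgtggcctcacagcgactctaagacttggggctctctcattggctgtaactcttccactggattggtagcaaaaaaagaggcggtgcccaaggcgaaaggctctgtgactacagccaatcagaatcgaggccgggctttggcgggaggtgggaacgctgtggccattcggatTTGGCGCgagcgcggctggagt
ORC1, chr1:52404394-52404673, minus strand: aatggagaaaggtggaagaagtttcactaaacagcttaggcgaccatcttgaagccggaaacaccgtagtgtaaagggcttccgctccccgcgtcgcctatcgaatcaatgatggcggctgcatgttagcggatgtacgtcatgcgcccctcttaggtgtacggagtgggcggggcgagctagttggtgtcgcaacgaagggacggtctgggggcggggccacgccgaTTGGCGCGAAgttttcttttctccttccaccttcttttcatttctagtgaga
MCM10, chr10:13161308-13161587, plus strand: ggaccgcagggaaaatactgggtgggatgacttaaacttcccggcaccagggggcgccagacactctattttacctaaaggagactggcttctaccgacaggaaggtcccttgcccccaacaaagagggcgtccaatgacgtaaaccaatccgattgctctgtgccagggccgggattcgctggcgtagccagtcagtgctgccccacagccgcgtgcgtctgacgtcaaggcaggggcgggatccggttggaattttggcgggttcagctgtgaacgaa
ORC2, chr2:200963631-200963910, minus strand: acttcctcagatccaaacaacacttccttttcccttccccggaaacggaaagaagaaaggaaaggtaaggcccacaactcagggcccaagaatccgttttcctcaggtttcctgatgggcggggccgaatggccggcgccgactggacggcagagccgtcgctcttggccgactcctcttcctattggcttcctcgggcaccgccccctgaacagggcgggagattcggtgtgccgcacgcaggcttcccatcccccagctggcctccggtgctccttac
The table held a promoter for 42 of the 47 members, with MCM4, MCM5, GINS4, RPA2 and RPA3 unmatched. At least 1 of the 4 words stood in a promoter of 31 of the 42, and in 34 of their 55 annotated promoters (61.8%), against 12.2% of 35116 promoters of the same length. In the printed set CDT1 had matches that begin 35 and 23 bases before the start, DTL had them 108 and 7 bases before it, CDC6 had one 8 bases after it, and ORC1 had 2 overlapping matches from 22 bases before it. MCM10 and ORC2 had none of these letters in the window. Members lower at an unadjusted p below 0.05 had a match in 8 of 10, and the remaining members in 23 of 32, so most of both kinds held one. The word CCAAT, on either strand, was found for 25 of the 42 members, and in 56.4% of their promoters against 33.6% of all. These counts describe letters and do not show binding.

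Within the origin recognition complex, which marks the places where helicases are loaded, ORC1 and ORC2 lay on opposite sides of the controls in CPM. ORC1 (ENSG00000085840, chr1:52372829-52404459, minus strand), the subunit that in human cells is degraded and remade each cycle, had 60.9, 63.0, 63.6 and 60.5 CPM with KCNQ3, against 71.8, 67.9, 71.9 and 68.2 CPM in controls. Its log2 fold change was -0.17 ± 0.04 (SE), and the adjusted p was 0.0683 in edgeR and 0.00511 in DESeq2. ORC2 (ENSG00000115942, chr2:200908973-200963680, minus strand), a core subunit, had 70.8, 69.2, 68.5 and 67.6 CPM with KCNQ3, against 60.6, 60.6, 65.5 and 63.0 CPM in controls. Neither gene's groups overlapped in CPM. In TPM, ORC2 had 28.5, 25.5, 26.1 and 25.3 with KCNQ3, against 24.6, 23.9, 26.0 and 23.6 in controls, and these groups overlapped. ORC2 had a log2 fold change of 0.15 ± 0.04 (SE), and the adjusted p was 0.10 in edgeR and 0.0412 in DESeq2. The ratio of ORC1 to ORC2 in TPM was 1.14, 1.22, 1.23 and 1.2 in overexpression libraries 1 to 4, against 1.6, 1.51, 1.46 and 1.45 in control libraries 1 to 4. This ratio was formed after the values of both genes were seen and is given as a description.

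The most abundant subunit by TPM was ORC6, which sits at the edge of the complex. It had 70.9, 75.8, 69.5 and 69.5 CPM with KCNQ3, against 62.7, 65.9, 69.2 and 73.5 CPM in controls. These groups overlapped, and the log2 fold change was 0.07 ± 0.05 (SE). ORC3, ORC4 and ORC5 had log2 fold changes of 0.02, -0.02 and -0.05. Their groups also overlapped. In length-scaled level ORC6 stood first in all 8 libraries, at 80.9 ± 6.87 TPM with KCNQ3 and 77.4 ± 4.26 TPM in controls (SD, n = 4 each). ORC3, ORC5 and ORC1 were neighbours with overlapping ranges, and ORC1 was above ORC2 in every library.

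The MCM2-7 genes, whose products form the ring of the replicative helicase, all had negative log2 fold changes, between -0.19 and -0.05, and each kept its sign in all 17 settings run. MCM5 (ENSG00000100297, chr22:35400063-35425430, plus strand) had 152, 147, 158 and 151 CPM with KCNQ3, against 183, 179, 167 and 162 CPM in controls. MCM6 (ENSG00000076003, chr2:135839626-135876426, minus strand) had 178, 186, 185 and 190.3 CPM with KCNQ3, against 201, 207, 198 and 199 CPM in controls. Both genes were lower in CPM in all 4 overexpression libraries than in any control. In TPM this held for MCM6, but MCM5 overlapped, with 72.4 in overexpression 1 and 70.8 in control 4. The log2 fold changes were -0.19 ± 0.05 (SE) for MCM5, with an adjusted p of 0.0922 by edgeR and 0.0124 by DESeq2, and -0.12 ± 0.04 (SE) for MCM6, with an adjusted p of 0.125 by edgeR and 0.00488 by DESeq2. MCM2 had a log2 fold change of -0.14 ± 0.06 (SE), and the adjusted p was 0.205 in edgeR. Its overexpression values ran from 269 to 296 CPM and its controls from 283 to 329.7 CPM, so that the groups overlapped.

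MCM7 was the most abundant of the 6, with 498, 497, 517 and 517 CPM in overexpression libraries, against 539, 539, 527 and 502 CPM in controls. Control 4 lay among the overexpression values, and the log2 fold change was -0.05 ± 0.04 (SE). MCM3 and MCM4 had log2 fold changes of -0.06 each and overlapping groups. The 6 products form a ring with 1 copy of each, but their RNA levels per length were unequal. MCM7 stood at 318 ± 8.42 TPM with KCNQ3 and 340.3 ± 22.8 TPM in controls, MCM3 at 185 ± 11.7 TPM with KCNQ3 and 199.8 ± 14.1 TPM in controls, and MCM5 at 68.3 ± 3.57 TPM with KCNQ3 and 80.5 ± 7.71 TPM in controls (SD, n = 4 each). The order MCM7, then MCM3 and MCM4, then MCM2, then MCM6 and MCM5 was the same in both groups. MCM3 and MCM4 could not be ordered because their ranges overlapped, and the ranges of MCM6 and MCM5 overlapped in controls.

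**Figure D3:**
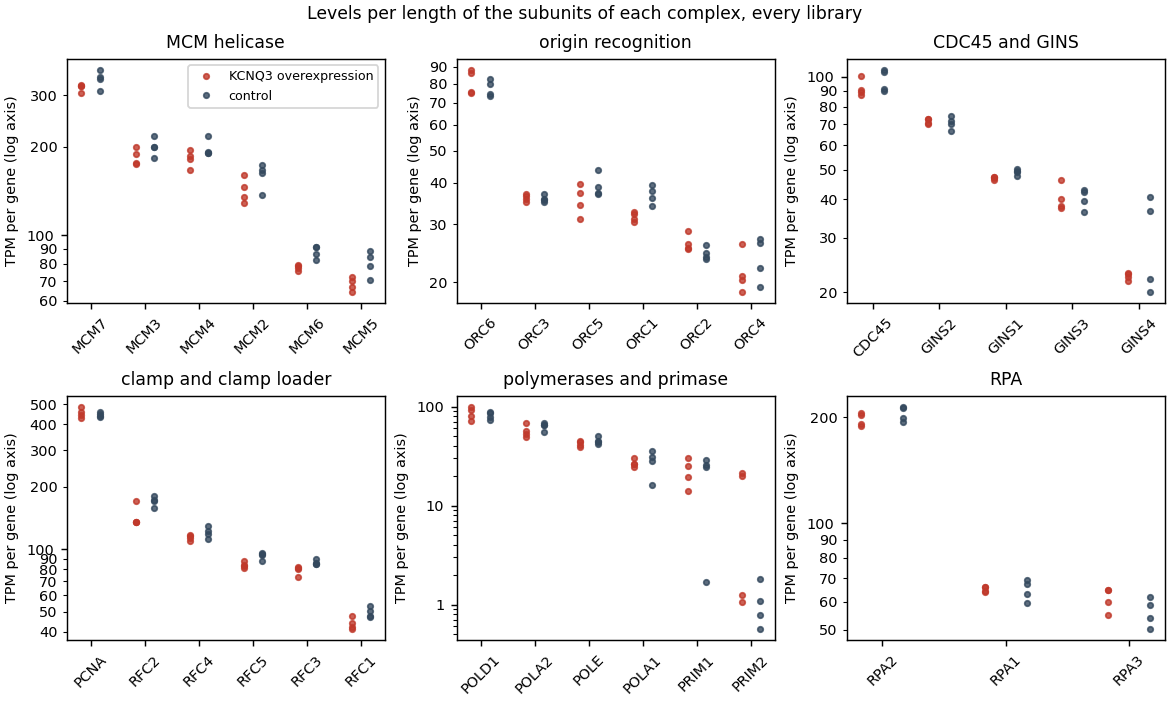
Length-scaled level (TPM, log axis) of each subunit of 6 complexes in every library, overexpression left in red and control right in dark blue. The subunits of a complex keep nearly the same order in both groups, with MCM7, ORC6, CDC45, PCNA, POLD1 and RPA2 at the top of theirs.

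Among the firing factors, MCM10 was the member with the smallest p. MCM10 (ENSG00000065328, chr10:13161554-13211104, plus strand), which binds the helicase as it is activated, had 117, 119, 119 and 115 CPM with KCNQ3, against 142, 137, 138 and 126 CPM in controls. No value of the 2 groups overlapped, and control 4 stood nearest to the overexpression libraries. Its log2 fold change was -0.21 ± 0.04 (SE), and the adjusted p was 0.0630 in edgeR and 0.0009 in DESeq2. CDC7, the kinase that phosphorylates the loaded MCM ring, had 183, 176, 162 and 168 CPM with KCNQ3, against 160.0, 158, 174 and 166 CPM in controls. The groups overlapped, with a log2 fold change of 0.07 ± 0.05 (SE). DBF4, the activating partner of CDC7, had a log2 fold change of 0.11, and TOPBP1, a scaffold for helicase assembly, one of -0.03, each with overlapping groups.

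CDC45 and the 4 GINS genes, the partners that complete the active helicase, did not share the lower values of CDC6, CDT1 and MCM10. CDC45 had 97.8, 119, 101 and 103 CPM with KCNQ3, against 94.5, 109, 96.1 and 121 CPM in controls, a log2 fold change of 0.00 ± 0.09 (SE) between overlapping groups. GINS1, GINS2 and GINS3 had log2 fold changes of -0.02, 0.07 and 0.01. GINS4 had one of 0.11 ± 0.05 (SE), and the adjusted p was 0.224 in edgeR, and its counts and its length-scaled level pointed opposite ways. It had 47.6, 49.0, 48.2 and 50.6 CPM with KCNQ3, against 46.2, 47.7, 42.4 and 45.1 CPM in controls, yet 23.0, 23.2, 21.7 and 22.4 TPM with KCNQ3, against 40.7, 22.1, 36.8 and 20.1 TPM in controls. Controls 1 and 3 carried the high TPM values. In these controls the GINS4 transcript ENST00000518671, of 1158 bases, had 207 and 179 counts, against 10 to 39 in the other libraries. ENST00000276533, of 3841 bases, had 0 counts in control 3. Whether such shifts between transcripts made the scales differ was not tested. CDC45 was the most abundant of the 5 by TPM in all 8 libraries.

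The polymerase genes had small negative fold changes on counts, and that of POLD1 turned positive on TPM. POLD1, the catalytic subunit of the lagging-strand polymerase delta, had 145, 138, 139 and 129.7 CPM with KCNQ3, against 153, 141, 145 and 137 CPM in controls, a log2 fold change of -0.07 ± 0.05 (SE) between overlapping groups. On the TPM scale its log2 fold change was 0.08 ± 0.10 (SE). POLE, the catalytic subunit of the leading-strand polymerase epsilon, had a log2 fold change of -0.09, and POLA2, the B subunit of polymerase alpha, one of -0.11. Neither reached an unadjusted p below 0.05.

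In the clamp and clamp loader group, the loader genes RFC1 to RFC5 had negative log2 fold changes and the clamp PCNA a positive one, also in all 17 settings. RFC2 (ENSG00000049541, chr7:74231499-74254458, minus strand), a small ATPase subunit, had 132, 139, 132 and 127 CPM with KCNQ3, against 147, 149.6, 153 and 145 CPM in controls. The groups did not overlap, and the log2 fold change was -0.17 ± 0.04 (SE), and the adjusted p was 0.0807 in edgeR and 0.000976 in DESeq2. RFC1 (ENSG00000035928, chr4:39287456-39366375, minus strand), the large subunit, had 138.99, 131, 132 and 128 CPM with KCNQ3, against 151, 139.08, 149.96 and 140.3 CPM in controls. Overexpression 1 and control 2 differed by under 0.1 CPM, so that this separation is marginal. The log2 fold change of RFC1 was -0.13 ± 0.04 (SE), and the adjusted p was 0.154 in edgeR. RFC5, RFC4 and RFC3 had -0.09, -0.06 and -0.04.

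PCNA, the ring that holds polymerases on DNA and the most abundant member by TPM in both groups, had 371, 383, 374 and 365 CPM with KCNQ3, against 336, 355, 369 and 366 CPM in controls. The groups overlapped, with a log2 fold change of 0.07 ± 0.04 (SE). PCNA stood at 454 ± 24 TPM with KCNQ3 and 445 ± 11 TPM in controls, and RFC2, next in order, at 144 ± 17.3 TPM with KCNQ3 and 171 ± 8.93 TPM in controls (SD, n = 4 each). The ratio of RFC2 to PCNA in TPM was 0.352, 0.294, 0.306 and 0.318 in overexpression libraries 1 to 4, against 0.395, 0.353, 0.372 and 0.415 in control libraries 1 to 4. Overexpression 1 at 0.352 and control 2 at 0.353 were nearly equal. RFC2 alone overlapped in TPM, with 170.3 in overexpression 1 and 158.6 in control 2. RFC2 was the loader gene with the smallest p and PCNA had the opposite sign, so their ratio is given as a description.

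The remaining fork genes were close to equal in the 2 groups. FEN1, the nuclease that removes Okazaki fragment flaps, had 108, 109, 114 and 112 CPM with KCNQ3, against 116, 110.4, 107 and 107 CPM in controls. LIG1, which seals those fragments, likewise had a log2 fold change of 0.01. RPA2, a subunit of the single-strand binding protein RPA, had 189, 199, 179.7 and 186 CPM with KCNQ3, against 177, 187, 195 and 192 CPM in controls. Both FEN1 and RPA2 had overlapping groups and a log2 fold change of 0.01 with SE of 0.04 and 0.05. RPA1 had a log2 fold change of 0.05, and RPA3 one of 0.18 with a wide 95% interval from -0.06 to 0.42.

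RRM1, the large subunit of ribonucleotide reductase, which makes deoxyribonucleotides, had 280.1, 274, 286 and 273 CPM with KCNQ3, against 296, 297, 296 and 281 CPM in controls. Control 4 lay among the overexpression values, and the log2 fold change was -0.07 ± 0.04 (SE). RRM2, the small subunit, had a log2 fold change of 0.00 on counts. CHAF1A, the large subunit of the histone chaperone CAF-1, had 113, 103, 104 and 101 CPM with KCNQ3, against 130.4, 114, 111 and 108 CPM in controls. Its groups overlapped at overexpression 1, and the log2 fold change was -0.14 ± 0.06 (SE), and the adjusted p was 0.245 in edgeR. CHAF1B, the middle subunit, had -0.06.

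In the 4 members with unstable estimates, a few libraries stood far from the rest, and for 3 of them another identifier in the files moved the opposite way. PRIM2, the large primase subunit, had 1.39, 32.0, 29 and 1.33 CPM in overexpression libraries 1 to 4, against 1.10, 1.89, 0.251 and 0.636 CPM in control libraries 1 to 4. Overexpression 2 and 3 alone were high, and 1 and 4 lay within the control range. Its fitted log2 fold change of 4.01 ± 1.37 (SE) had adjusted p of 0.197 in edgeR and 0.0178 in DESeq2. In the high libraries 1 transcript, ENST00000615550, held 760 and 773 counts, against 0, 0, 1 and 0 in controls. The identifier ENST00000672107, which GENCODE 29 does not contain and which is therefore named only, had 802, 4, 1 and 705 counts in overexpression libraries, against 912, 801, 793 and 793 in controls. The sum of PRIM2 and this identifier ran from 29.1 to 32.1 CPM in overexpression libraries and from 30.7 to 33.4 CPM in controls. The identifier was picked after these values were seen, and 12 transcripts in the table had at most 60 counts in overexpression 2 and 3 and at least 300 in the other libraries. It was the 1 of those 12 outside GENCODE 29.

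UHRF1, which binds hemimethylated DNA behind the fork, had 41.4, 42.4, 80.5 and 65.3 CPM with KCNQ3, against 35.1, 49.4, 76.6 and 37.2 CPM in controls, with high and low values in both groups. The sum with a second identifier outside GENCODE 29, ENST00000650932, ran from 78.3 to 91.7 CPM with KCNQ3 and from 78.4 to 87.8 CPM in controls. This identifier was also picked after the values were seen, and other transcripts with its pattern were not counted. PRIM1, the catalytic primase subunit, had 25.4, 12.6, 22.1 and 17.3 CPM with KCNQ3, against 20.4, 21.6, 24.9 and 1.07 CPM in controls. In control 4, the low one, the overlapping gene AC117378.1 had 312 counts, and it had 0 in the other libraries. The sum of PRIM1 and AC117378.1 still ran from 12.6 to 25.4 CPM with KCNQ3 and from 13.5 to 24.9 CPM in controls. POLA1, the catalytic subunit of polymerase alpha, was low in control 2, at 53.2 CPM, and lay between 87.0 and 115 CPM in the other libraries. Whether reads moved between such identifiers was not tested. Without these 4 genes the median log2 fold change of the members was -0.05.

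**Figure D4:**
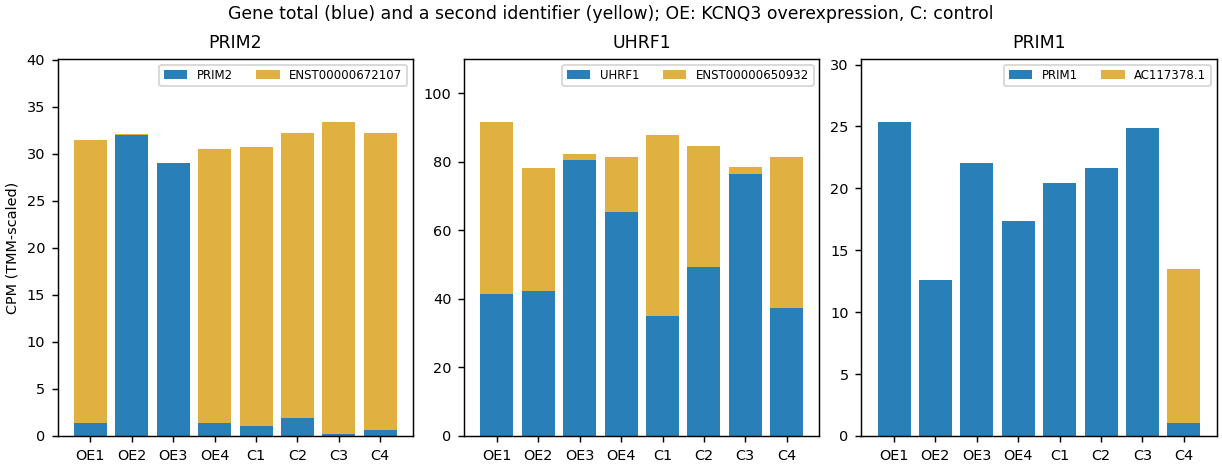
TMM-scaled CPM in every library of PRIM2, UHRF1 and PRIM1 (blue) with a second identifier stacked on top (yellow), where OE is overexpression and C control. For PRIM2 the blue part is high in overexpression 2 and 3 alone while the stacked total stays between 29.1 and 33.4 CPM.

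Other members share their place with further genes. A gene with more than 200 counts over the 8 libraries together overlapped 18 of the 47. Among such genes were UBXN6 at CHAF1A and the pseudogene RPL21P28 within DTL. RPL21P28 had 1661 to 1762 counts in overexpression libraries and 1564 to 1868 in controls. The strand setting of the counting is not stated in the labels, so reads of such pairs could have been divided by the authors' estimate.

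Single transcripts gave no call among the members. Of 162 member transcripts tested by edgeR, 0 reached an adjusted p below 0.05, against 6 of 47129 in all (0.0127%), and 8 had an unadjusted p below 0.05, against 5.58% of all. By TPM, MCM6 and CDT1 rest almost wholly on 1 transcript each. ENST00000264156 held on average 99.8% of the TPM of MCM6, and ENST00000301019 held 99.1% of that of CDT1. These transcripts had log2 fold changes of -0.15 ± 0.04 and -0.34 ± 0.09 (SE). In 19 members 1 transcript held on average at least 80% of the gene's TPM. In 26 members the transcript leading by TPM was not the same in every library. CDC45 had an even gene total and uneven transcripts. ENST00000404724 of CDC45 had 364, 700, 570 and 750 counts with KCNQ3, against 1317, 1911, 1201 and 1375 in controls. ENST00000263201 of CDC45 had 2108, 1601, 1942 and 1500 counts with KCNQ3, against 1274, 153, 858 and 840 in controls. Neither pair of groups overlapped, and the log2 fold changes were -1.24 ± 0.29 and 1.24 ± 0.54 (SE), with adjusted p of 0.728 and 0.898 by edgeR. The share of all transcripts without overlap is not given here. Another CDC45 transcript, ENST00000437685, varied widely within both groups. It had 8, 418, 17 and 0 counts with KCNQ3, against 34, 569, 12 and 527 in controls. The test of transcript usage called 0 of 38 members, against 0.351% of 9395 genes, and 0 of the 38 had an unadjusted p below 0.05.

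Genes that act beside the 47 were read from 4 lists. Again no gene of any list reached an adjusted p below 0.05 by edgeR, and DESeq2 gave one below 0.05 for 10 of the 90, where it did so for 4.86% of all genes. Among 32 genes of G1/S control, which set entry into S phase, 7 were lower and 3 higher at an unadjusted p below 0.05, 21.9% and 9.38% against 9.46% and 9.92% of all genes, with a median log2 fold change of -0.02. E2F1, an activator of many replication genes, had 68.5, 65.2, 64.7 and 62.8 CPM with KCNQ3, against 80.3, 71.2, 78.6 and 74.4 CPM in controls. The groups did not overlap, and the log2 fold change was -0.22 ± 0.05 (SE), and the adjusted p was 0.0643 in edgeR and 0.00483 in DESeq2. CDC25A, a phosphatase that activates CDK2, had a log2 fold change of -0.17 and RBL1, the pocket protein p107, one of -0.18, each without overlap. The E2F family did not lie on 1 side of 0. E2F1, E2F2, E2F7 and E2F8 had negative log2 fold changes of -0.22, -0.23, -0.17 and -0.15, E2F3 had -0.05 and E2F6 0.00, and E2F4 and E2F5 had 0.10 and 0.13. The dimer partners of E2F proteins had 0.09 for TFDP1 and -0.13 for TFDP2.

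In the replication checkpoint list of 11 genes, 2 were lower and 1 higher at an unadjusted p below 0.05, 18.2% and 9.09% against 9.46% and 9.92% of all genes. CHEK1, the checkpoint kinase that slows origin firing, had 77.2, 75.2, 71.6 and 70.4 CPM with KCNQ3, against 88.8, 81.9, 89.2 and 84.1 CPM in controls. The groups did not overlap, with a log2 fold change of -0.22 ± 0.05 (SE), and the adjusted p was 0.0617 in edgeR and 0.0013 in DESeq2. RAD9A, a subunit of the checkpoint clamp, had 0.22 and WEE1, a kinase that inhibits CDK1, had -0.14, each without overlap.

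Other replisome and firing subunits numbered 31, of which 2 were lower and 3 higher at an unadjusted p below 0.05, 6.45% and 9.68%, close to the shares over all genes. CHTF18, a subunit of an alternative clamp loader, had a log2 fold change of 0.18, WDHD1, which ties polymerase alpha to the helicase, -0.17, and MCM9, a helicase relative that acts in recombination, 0.16. In the nucleotide supply list of 16 genes, 1 was lower and 2 higher at an unadjusted p below 0.05, 6.25% and 12.5% against 9.46% and 9.92% of all genes. TYMS, which makes thymidylate, had 201, 207, 187 and 189 CPM with KCNQ3, against 168, 181, 164 and 176 CPM in controls. Its overexpression values were all above the controls, the opposite of CDC6 and CDT1, with a log2 fold change of 0.19 ± 0.05 (SE), and the adjusted p was 0.0983 in edgeR and 0.0181 in DESeq2. DCTPP1, which clears unusual pyrimidine nucleotides, had 0.17 and RRM2B, the p53-induced reductase subunit, -0.13, each with overlapping groups.

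**Figure D5:**
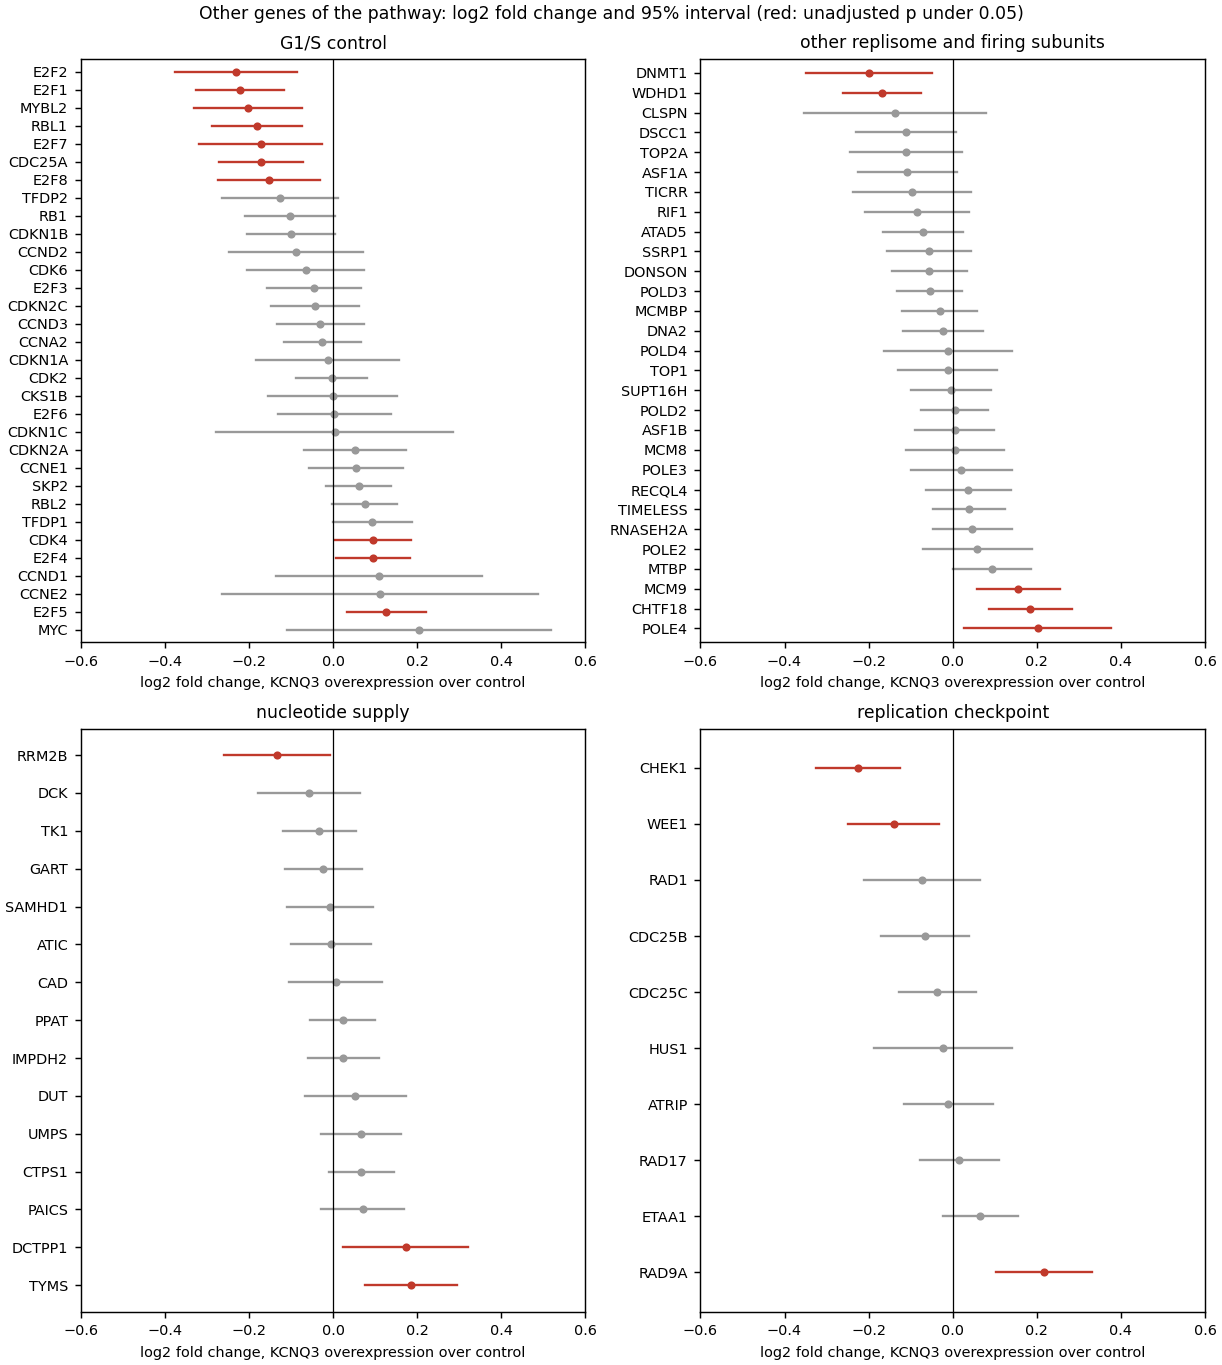
Log2 fold change (overexpression over control) and 95% interval of the genes of 4 further lists, with an unadjusted p under 0.05 in red. CHEK1, E2F1 and WDHD1 lie to the left of 0 and TYMS, CHTF18 and RAD9A to the right, and genes with an SE of 0.28 or more are not drawn.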

How the data were processed

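RNA-seq of 8 HEK293T libraries was used, 4 with KCNQ3 overexpression and 4 controls, grouped by the labels. The submitters' processing notes list StringTie 2.1.0, HISAT2 2.1.0, SAMtools 1.9, cutadapt 2.8 and FastQC 0.11.5, with build GRCh38.p13. What each tool did, the annotation release and the strand setting are not stated there. Estimated counts (whole numbers) and TPM, both per transcript, were deposited by the authors. Of 227751 identifiers, 205804 matched GENCODE 29 and were summed per gene; they held 98.7% to 98.9% of counts. Printed gene coordinates are GENCODE 29.

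edgeR 4.0.16 (R 4.3.3) fitted a quasi-likelihood model with TMM scaling, filterByExpr (minimum count 10, total 15) and robust estimation to all genes, adjusted by Benjamini-Hochberg, threshold 0.05. SE and 95% intervals follow from that test. DESeq2 1.42.0 and limma 3.58.1, on log2(TPM + 1) or log2(TPM + 0.1) of genes of at least 1 TPM, were alternatives, as were no scaling factor, RLE factors, 2 count filters, a replicate block and leaving out each library. Values per library are given for the members with the smallest p among those whose groups did not overlap, up to 12 (10 qualified), and for the most abundant of each role; context genes were the 3 with the smallest unadjusted p below 0.05 per list. MCM2, GINS4, the 4 unstable members and the E2F family with its partners, apart from E2F1, were named after their values were seen. The members and lists were chosen with earlier results of these data known.

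Tested on simulated data over 19280 genes, the edgeR gene test found 12% of 1.25-fold, 56% of 1.5-fold, 82% of 2-fold and 94% of 4-fold changes. Of its 137 calls, 15 were false. DESeq2 made 165 calls on the same simulated data, and 34 of them were false. The transcript test over 47129 transcripts found 0% of 2-fold and 14% of 4-fold changes. On the simulated transcripts, the usage test found 24 of 124 changed genes and 16 of its 40 calls were false. A blood marker and a gene of the nucleotide supply list are not reported here.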

Additional observations from a re-analysis of the deposited data

Results flagged for a closer look

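Of 94 groups of 4 libraries examined (47 members in both groups), 3 held a library whose gap to its nearest neighbour exceeded Dixon's 95% limit for the share of the group's range; chance flags about 1 in 20 groups. ORC3 had 46.5 CPM in overexpression replicate 1, below the 51.2 CPM of the nearest overexpression library. CDC6 had 131 CPM in control replicate 3, above the 126 CPM of the nearest control, and every control of CDC6 stayed above every overexpression library. RRM1 had 281 CPM in control replicate 4, below the 296 CPM of the nearest control.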

How the results depend on the processing

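The call of 0 members held in edgeR with RLE factors, no scaling factor and both count filters, and with limma on TPM. DESeq2 called 10 members, 10 context genes and 727 genes in all. Genes called in all numbered 5 on TPM with either pseudocount and 35 with no scaling factor. Replicate numbers did not pair the samples (same-number correlations 0.0732, -0.0319, -0.051 and -0.0079); with the number as a block 86 genes (0.446%) were called, 1 of them a member, CDT1, with an adjusted p of 0.0464. Leaving out 1 library gave 8 to 378 genes, 0 to 3 members and 0 to 4 context genes; without overexpression 1 the members were DTL and CDC6, without control 4 DTL, MCM10 and CDT1. Usage calls ran from 0 to 1. The members' median log2 fold change was negative in all 17 settings, from -0.086 (TPM, pseudocount 0.1) and -0.084 (TPM, pseudocount 1) to -0.016 without overexpression 3. It was -0.047 without scaling and -0.052 without the 4 unstable members. On TPM (pseudocount 1), where the median of all genes was -0.034, 8 of 47 members changed sign.

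Fold changes near 0 changed sign. CDC45 was -0.0064 (DESeq2), -0.0034 (RLE), -0.081 (both TPM fits), -0.0052 (any gene with a count) and -0.016 (no scaling). FEN1 was -0.0022 (DESeq2), -0.042 (both TPM fits), -0.00082 (any count) and -0.012 (no scaling). RPA2 was -0.00092 (DESeq2), -0.054 (both TPM fits), -0.00023 (any count) and -0.011 (no scaling). GMNN was -0.043 (both TPM fits) and -0.0091 (no scaling), and POLD1 0.079 and 0.078 on TPM. Leaving out 1 library gave -0.066 to 0.072 for CDC45, -0.014 to 0.027 for FEN1, -0.024 to 0.025 for RPA2 and -0.050 to 0.057 for GMNN. The cause was not tested. The simulated recovery of 12% of 1.25-fold changes is for genes among all 19280, and recovery among the members alone is not given here. It therefore cannot say how often such a change would be missed in a member. For 40 members the interval of the fold change lay within 1.25-fold of no change, so smaller differences remain possible in them. For the other 7 the interval was wider, and a missing call shows less.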
